A study of Mus musculus with 28 samples.

Results

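The cytosolic ribosomal protein genes encode the proteins that, with ribosomal RNA, form the ribosomes of the cytoplasm. A given list of 52 of these genes, 18 for the small and 34 for the large subunit, was matched by gene symbol to the 56748 identifiers of each count file, and all 52 were found and passed the filter on low counts in both comparisons. Counts came from total RNA of mouse mammary lines, sequenced after depletion of ribosomal RNA. 4T1 is a mammary cancer line, labelled cancer, with 8 libraries that carry the treatment label DOX. HC11 is a mammary epithelial line, labelled untransformed, with 10 libraries labelled DOX + DIP and 10 labelled DOX. All 28 libraries thus carry the label DOX, and none is without it. The labels spell out neither abbreviation and name no construct, dose, time or culture. For this line the letters DIP are commonly used for dexamethasone, insulin and prolactin, the hormones that induce milk protein genes. The title of the series names PAPAS, a transcript antisense to ribosomal DNA. Each group is a single line, and the p-values below measure only the spread between libraries, which may be technical.

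Ribosomal protein mRNAs are among the most abundant messages of growing cells, and their products are needed in equal amounts, so the genes are usually described as a set that varies together. Their transcripts begin with a cytosine and a run of pyrimidines, the terminal oligopyrimidine or TOP motif, through which the kinase complex mTORC1 and the RNA-binding protein LARP1 control translation and stability of these mRNAs. Mammary cells raise their capacity for protein synthesis with lactation, and some ribosomal proteins, RPL5 and RPL11 among them, also act on the p53 pathway when ribosome assembly is disturbed.

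Libraries held between 174275141 and 198008179 counts in 4T1, between 134117581 and 222065843 in HC11 DOX + DIP and between 135955692 and 185616382 in HC11 DOX. HC11 DOX + DIP libraries 8 and 10 stood apart: the mean log2 CPM (CPM being counts scaled to library size) of 4 glucocorticoid target genes was 3.73 and 3.63 there. It ran from 5.78 to 6.87 in the remaining 8 DIP libraries and from 1.83 to 2.35 with DOX alone. The keratin gene Krt5 was at 56.7 and 88.5 CPM in those same libraries, at 322 to 810.2 CPM in the remaining 8 and at 1586 to 4684 CPM with DOX alone. 4T1 libraries 1 and 2 had 64.8 and 95.5 CPM of Krt5, against 10.8 to 25.2 CPM in the other 4T1 libraries. Counts over the 52 genes and over the other gene lists are therefore also given without these libraries. Of 10 epithelial markers, all 10 in 4T1, 9 in DIP and 8 in DOX libraries had a median of at least 1 CPM. Summed milk protein genes stayed at or below 0.127 CPM in 4T1, 0.173 CPM in DIP and 0.0566 CPM in DOX libraries, and Csn2, which encodes beta-casein, had no count in 4T1 or in DOX libraries. Leukocyte, endothelial and adipocyte markers summed to at most 12.4, 5.21 and 0.616 CPM in any library. Fibroblast markers summed to 9.49 to 15.8 CPM in 4T1, 20.6 to 268 CPM in DIP and 38.1 to 98.8 CPM in DOX libraries.

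Ribosomal protein genes have many processed pseudogenes, and this limits what a count on the parent gene means. All 52 genes had at least 1 annotated pseudogene assigned to them as a copy, and there were 773 copies in all. A copy shared a stretch of 50 coding bases with the gene or, where it shared none, carried the gene's name. For 23 genes the copies together held more counts than the gene. Only 7 genes had at least 50% of their 50-base coding stretches unique in the annotated transcripts, and 19 had none. Rps3 and Rpl8 were the most unique, at 91.9% and 91.3%. Rps2 had 73 copies with, at the median library, 21 times its own count, and Rpl21 had 82 copies with 48 times its own.

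The start regions of the genes on which the results turn are shown to let the reader see the letters around the first transcribed base. Each window runs from 60 bases before to 30 bases after the annotated start, 5′ to 3′ on the gene's strand, in RefSeq's GRCm38.p6, which is not the build of the counts (GRCm39). Promoter entries were found for 41 of the 52 genes, 48 entries in all. Rpl34 has 2 entries, and the window of the other is not shown. Capitals mark a run of at least 7 pyrimidines that begins with C (searched from 20 bases before to 30 after the start), the letters CCGGAAG, which fit the core bound by ETS factors, or the letters TCTCGCG, on either strand. The first 4 windows belong to the genes with the highest 4T1 to HC11 ratio, the next 4 to genes called with DIP, and the last 2 to genes that were not called in either comparison.
Rps28: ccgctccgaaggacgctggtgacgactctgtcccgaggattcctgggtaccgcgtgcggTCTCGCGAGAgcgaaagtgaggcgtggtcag
Rps18: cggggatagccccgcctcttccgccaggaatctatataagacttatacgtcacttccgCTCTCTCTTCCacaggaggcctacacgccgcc
Rpl14: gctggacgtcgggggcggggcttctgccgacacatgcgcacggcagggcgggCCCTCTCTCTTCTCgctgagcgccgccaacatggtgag
Rpl34: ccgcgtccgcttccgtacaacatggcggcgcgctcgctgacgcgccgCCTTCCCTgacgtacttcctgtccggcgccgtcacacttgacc
Rps2: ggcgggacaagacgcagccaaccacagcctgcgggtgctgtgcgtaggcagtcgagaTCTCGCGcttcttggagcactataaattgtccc
Rpl11: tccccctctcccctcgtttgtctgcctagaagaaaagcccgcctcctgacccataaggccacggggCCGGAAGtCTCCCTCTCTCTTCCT
Rpsa: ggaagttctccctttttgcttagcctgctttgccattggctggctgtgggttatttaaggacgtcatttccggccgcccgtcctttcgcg
Rpl13a: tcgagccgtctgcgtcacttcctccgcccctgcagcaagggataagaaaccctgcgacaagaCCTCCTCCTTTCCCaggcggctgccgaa
Rpl13: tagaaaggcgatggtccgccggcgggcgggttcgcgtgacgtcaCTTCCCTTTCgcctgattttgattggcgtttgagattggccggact
Rps25: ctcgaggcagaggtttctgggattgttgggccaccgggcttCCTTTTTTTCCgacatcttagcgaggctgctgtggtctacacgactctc
These windows lie at chr17:33824533-33824622 (minus strand) for Rps28, chr17:33955636-33955725 (minus) for Rps18, chr9:120571457-120571546 (plus) for Rpl14, chr3:130730369-130730458 (minus) for Rpl34 and chr17:24720003-24720092 (plus) for Rps2. The others lie at chr4:136053364-136053453 (minus) for Rpl11, chr9:120127706-120127795 (plus) for Rpsa, chr7:45128716-45128805 (minus) for Rpl13a, chr8:123102290-123102379 (plus) for Rpl13 and chr9:44407654-44407743 (plus) for Rps25.

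Among the 48 entries, 28 (58.3%) held the pyrimidine run near the start, against 22.2% of all 32851 mouse promoter entries. In the full window of 250 bases before to 50 after the start, on both strands, CCGGAAG stood in 17 (35.4%), against 8.86% of all entries. TCTCGCG stood in 12 (25%), against 2.56%. GGGCGG, the GC box, stood in 28 (58.3%), against 35.7%, CACGTG, the E-box, in 8 (16.7%), against 7.15%, and TATAAA in 4 (8.33%), against 13.6%. A match of TCTCGCG can share its first letters with a pyrimidine run. In the window of Rps28 TCTCGCG stood on both strands, overlapping, across the start, and in that of Rps2 on the strand shown, also across the start. Rpl11 held CCGGAAG before a pyrimidine run, both after the start, and nothing is marked in the window of Rpsa. Pyrimidine runs farther before the start, such as those near the left ends of the windows of Rpsa and Rpl11, lie outside the stretch that was searched. A match in letters describes the window, not a bound site.

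Ribosomal protein genes took a larger share of the counts in 4T1 than in either HC11 group. The 52 genes held 3.97% to 5.15% of all counts in the 4T1 libraries (median 4.25%), 2.25% to 3.87% in the DIP libraries (median 3.12%) and 2.87% to 3.75% in the DOX libraries (median 3.24%). Every 4T1 library lay above every HC11 library, and the range of the DIP libraries took in that of the DOX libraries. 4T1 libraries 2 and 4 had the highest shares (5.14% and 5.15%), DIP library 2 the lowest of all (2.25%) and DIP library 10 the highest of HC11 (3.87%). The annotated pseudogenes of all cytosolic ribosomal protein genes held 9.53% to 12.9% of counts in 4T1, 5.13% to 9.19% in DIP and 6.91% to 9.17% in DOX libraries. These are 1158 copies, of which 773 belong to the 52 genes, so this share cannot be set directly against that of the 52. In bulk RNA, a different number of cells of a type and a different amount of RNA per cell cannot be told apart.

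**Figure D1:**
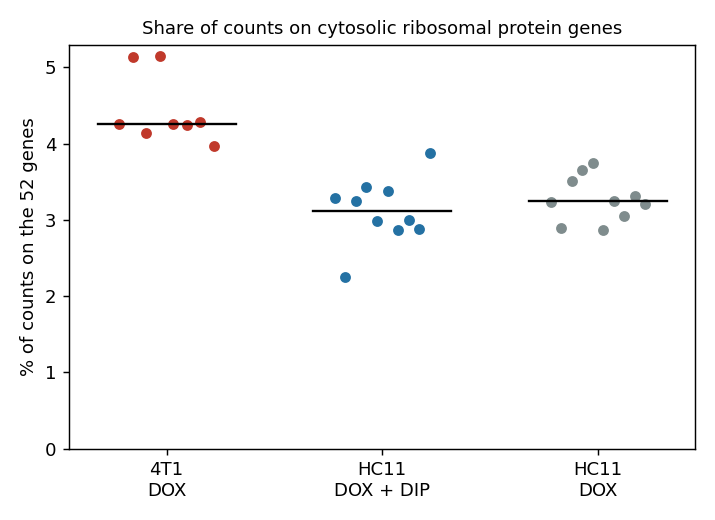
Percent of each library's counts on the 52 ribosomal protein genes, with 1 point per library (8 of 4T1 DOX, 10 of HC11 DOX + DIP, 10 of HC11 DOX) and the group median as a line. The 4T1 points lie between 3.97% and 5.15%, above all HC11 points, while the DIP and DOX points overlap.

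Levels were compared between genes per kilobase of coding sequence, with the counts of copies left out. The median gene stood at 1663 CPM per kb in 4T1, 998 in DIP and 1000.1 in DOX libraries. Rplp1, an acidic protein of the stalk that recruits elongation factors, had the highest such level in all 3 groups, at 4840.3 in 4T1, 2598 in HC11 DOX + DIP and 2889 in HC11 DOX libraries. Its ranges did not overlap those of the next gene in 4T1, where Rpsa followed at 3042, with 2666 to 3940 against 4511 to 6616 for Rplp1. In DOX libraries Rpl32 came next at 2099 and its range, 1462 to 2513, overlapped that of Rplp1, 2271 to 3914. Rpl21 was the lowest in all 3 groups, at 308 in 4T1, 311 in HC11 DOX + DIP and 319 in HC11 DOX libraries. Since its copies held far more counts than the gene, this level is uncertain. The ranks of the other genes are uncertain for the same reason. At the median library, copies held 0.055 times the count of Rplp1, against 11.8 times for Rpl7a and 21 times for Rps2. Coding length also leaves out the untranslated parts of the transcripts. Other genes differed in rank between the groups: Rpsa was at rank 2 in 4T1, 19 in DIP and 5 in DOX libraries, and Rps28 at rank 14 in 4T1 and 44 in DOX libraries.

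The comparison of 4T1 with HC11, both with the label DOX, asked how the cancer line differs from the untransformed one. Of the 52 genes, 48 were higher in 4T1, 0 were lower and 4 did not pass the quasi-likelihood test of edgeR at an adjusted p of 0.05 (Benjamini-Hochberg), while 34.3% of the 23875 genes tested were called higher and 35.6% lower. The median log2 fold change of the 52 was 0.67, against -0.01 for all genes tested, and the range ran from -0.07 to 1.45. For 37 of the 52 genes every 4T1 library lay above every HC11 DOX library, which held for 19.5% of all genes tested. Only 4 genes reached a 2-fold difference. No gene was lower at an unadjusted p under 0.05, and DESeq2 and limma voom gave the same 48 higher and 0 lower. Scaling by library totals alone moved the median of all genes to -0.24 and that of the 52 to 0.44, with 44 higher and 2 lower, Rpl21 and Rps25. Relative to all genes the median was 0.68 under either scaling. Without 4T1 libraries 1 and 2 the count was again 48 and 0, against 32.4% and 34.0% of 24519 genes, and the counts of the structural groups given below were the same too. Mitochondrially encoded genes held 1.47% to 3.35% of counts in 4T1 and 2.96% to 5.07% in DOX libraries, and 3 cell cycle genes (Mki67, Top2a and Ccnb1) summed to 1134 to 1458 CPM in 4T1 and 403 to 1131 CPM in DOX libraries. The nuclear RNAs Malat1 and Neat1 held 0.0417% to 0.0711% of counts in 4T1 and 0.0315% to 0.113% in DOX libraries. The part of these measures in the result was not tested.

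**Figure D2:**
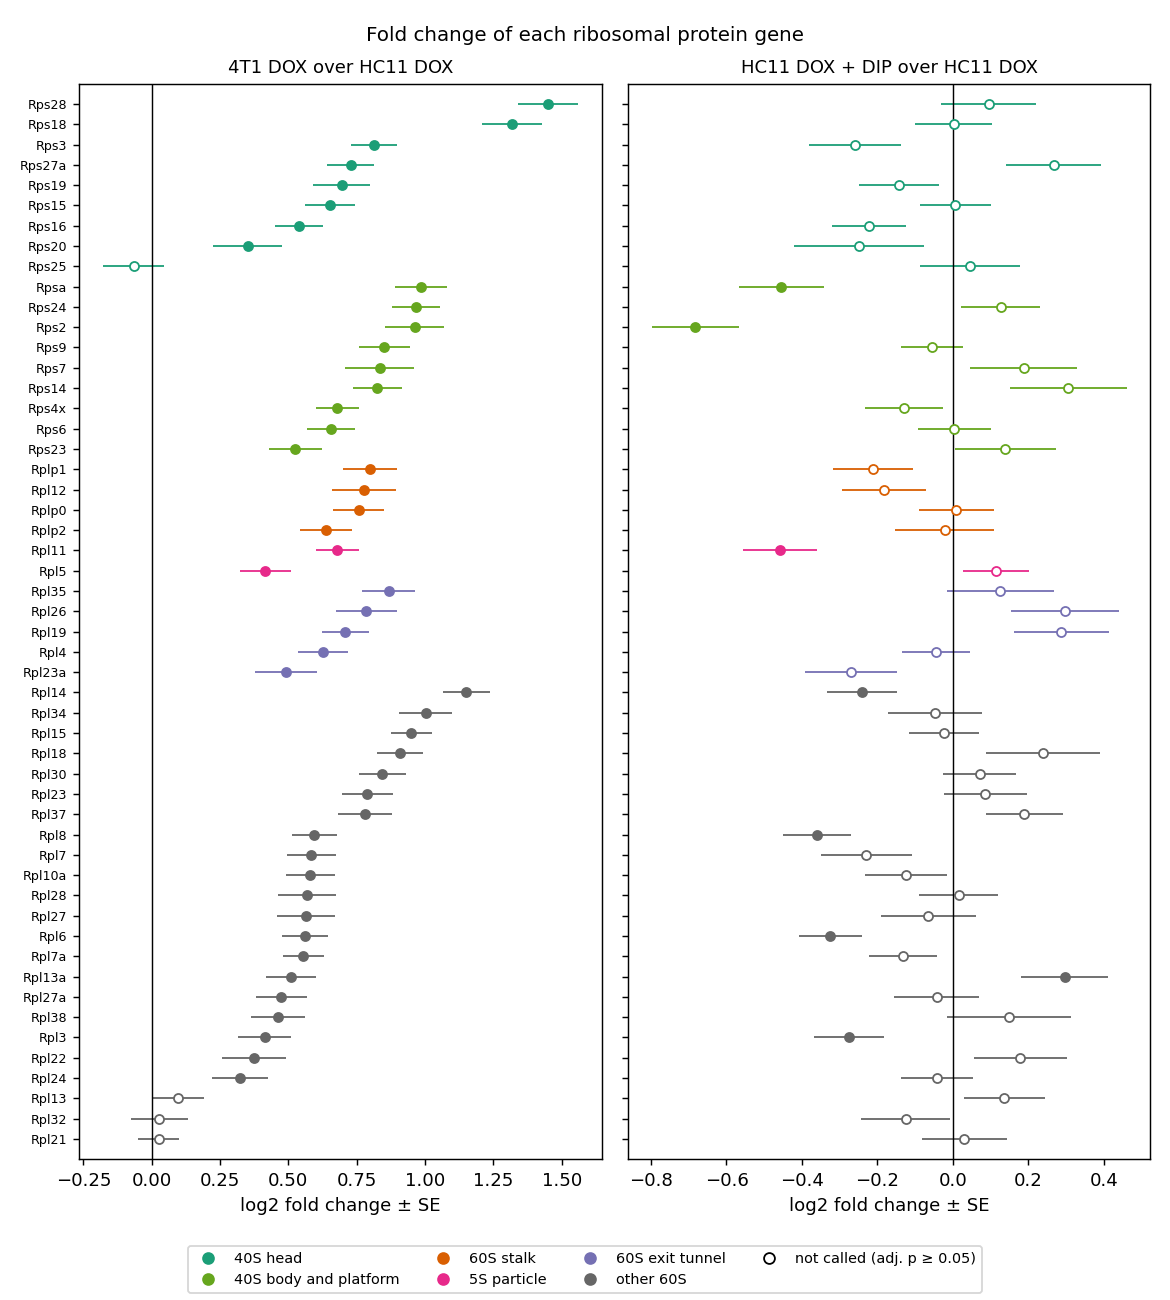
Log2 fold change with its SE for each of the 52 genes (rows, ordered within structural groups of the small subunit, 40S, and the large subunit, 60S), 4T1 over HC11 DOX on the left and HC11 DOX + DIP over HC11 DOX on the right, with filled points where edgeR's adjusted p was under 0.05. On the left 48 points are filled, all right of 0, though Rpl21 and Rps25 were called lower when libraries were scaled by their totals, and on the right 1 filled point lies above 0 and 7 below.

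In the head of the small subunit, which swivels as tRNAs move through the ribosome, 8 of 9 genes were higher in 4T1, with a median log2 fold change of 0.70. Under scaling by library totals 7 were higher and 1, Rps25, was lower. Rps28 (ENSMUSG00000067288), whose product sits near the exit of the mRNA channel, had 332 to 541 CPM (median 406) in the 4T1 libraries, against 120.4 to 198 CPM (median 141) in the HC11 DOX libraries. No 4T1 library came near the HC11 range, and the log2 fold change of 1.45 ± 0.11 (SE) was the largest of the 52 genes (adjusted p = 4.96e-10). Its copies held 1.01 times its own count, and no coding stretch of it was unique. Rps18 (ENSMUSG00000008668), at the contact with the large subunit, had 434 to 767 CPM (median 573) in the 4T1 libraries, against 180.2 to 316 CPM (median 223) in the HC11 DOX libraries. The groups did not overlap, at 1.32 ± 0.11 (SE) and adjusted p = 1.76e-09. The window of Rps28 shown above carries TCTCGCG at the start, and that of Rps18 a pyrimidine run across it.

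Rps19 and Rps27a, in the same head, were named for their disease link and their unusual product. Rps19, the gene most often mutated in Diamond-Blackfan anaemia, had 407 to 736 CPM (median 548) in the 4T1 libraries, against 266 to 421 CPM (median 325) in the HC11 DOX libraries. Only the lowest 4T1 library, at 407 CPM, fell below the highest HC11 DOX library, at 421 CPM, and the gene rose by 0.70 on the log2 scale (adjusted p = 6.28e-06, edgeR). Rps27a, translated as a fusion of ubiquitin and a ribosomal protein, had 576 to 847 CPM (median 681) in the 4T1 libraries, against 312 to 468 CPM (median 430.4) in the HC11 DOX libraries. The groups did not overlap (0.73 ± 0.09 (SE), adjusted p = 2.54e-07). Rps25, which some viral RNAs need to start translation internally, had 453 to 723 CPM (median 527) in the 4T1 libraries, against 452 to 738 CPM (median 529) in the HC11 DOX libraries. The ranges were nearly the same, with a log2 difference of -0.07 ± 0.11 (SE) and adjusted p = 0.616.

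In the body and platform of the small subunit all 9 genes were higher in 4T1, without overlap of the groups for any of the 9, and the median log2 fold change was 0.83. Rpsa (ENSMUSG00000032518), which is also known as a laminin receptor, had 2359.7 to 3487 CPM (median 2692) in the 4T1 libraries, against 1172 to 1887 CPM (median 1366) in the HC11 DOX libraries and differed by 0.98 ± 0.10 (SE) on the log2 scale (adjusted p = 1.64e-08). Rps2 (ENSMUSG00000044533), at the entry of the mRNA channel, had 1276 to 2096 CPM (median 1493) in the 4T1 libraries, against 624 to 1086 CPM (median 789) in the HC11 DOX libraries and differed by 0.96 ± 0.11 (SE) (adjusted p = 1.16e-07). Both genes stood nearly 2-fold higher in the cancer line, with fold changes of 1.98 and 1.95. Rps6, the substrate of S6 kinases, had 983 to 1388 CPM (median 1072) in the 4T1 libraries, against 588 to 838 CPM (median 679) in the HC11 DOX libraries (0.66 ± 0.09 (SE), adjusted p = 1.40e-06). Rps14, deleted in the 5q- syndrome of human marrow, had 699 to 1058 CPM (median 803) in the 4T1 libraries, against 363 to 551 CPM (median 459) in the HC11 DOX libraries (0.83 ± 0.09 (SE), adjusted p = 7.26e-08). Rps24, Rps9, Rps7, Rps4x and Rps23 lay between 0.53 and 0.97 on the log2 scale.

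In the stalk of the large subunit, which recruits translation factors that hydrolyse GTP, all 4 genes were higher in 4T1 without overlap of the groups, with a median log2 fold change of 0.77. Rplp0, the base of the stalk, had 1925 to 2719.7 CPM (median 2179) in the 4T1 libraries, against 1025 to 1735 CPM (median 1284) in the HC11 DOX libraries. Its log2 fold change was 0.76, next to 0.80 for Rplp1, 0.64 for Rplp2, its partner in the acidic dimer, and 0.78 for Rpl12, which sits beside the base. With standard errors of 0.09 to 0.12, these 4 values were close to each other. The pair that carries the 5S RNA into the large subunit was higher as well, at 0.68 ± 0.08 (SE) for Rpl11 (adjusted p = 2.37e-07) and 0.42 ± 0.09 (SE) for Rpl5 (adjusted p = 5.26e-04). Rpl11 had 714 to 963 CPM (median 755) in the 4T1 libraries, against 341 to 549.9 CPM (median 502) in the HC11 DOX libraries, without overlap. Rpl5 had 919 to 1368 CPM (median 1051) in the 4T1 libraries, against 689.8 to 1009.8 CPM (median 758) in the HC11 DOX libraries, and its ranges overlapped. Scaled by library totals, the difference of Rpl5 was 0.18 (adjusted p = 0.0568).

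At the exit tunnel of the large subunit, through which the new protein leaves, all 5 genes were higher in 4T1, at 0.87 for Rpl35, 0.79 for Rpl26, 0.71 for Rpl19, 0.63 for Rpl4 and 0.49 for Rpl23a. Of these, Rpl23a alone had overlapping groups. Of the remaining 23 large-subunit genes, 20 were higher, with a median log2 fold change of 0.57, and 13 of the 23 had groups that did not overlap. Rpl14 (ENSMUSG00000025794) had 865 to 1301 CPM (median 1027) in the 4T1 libraries, against 369 to 576 CPM (median 478) in the HC11 DOX libraries, without overlap (1.15 ± 0.09 (SE), adjusted p = 3.33e-10). Rpl34 (ENSMUSG00000062006) had 401 to 574 CPM (median 432) in the 4T1 libraries, against 172 to 270.2 CPM (median 239) in the HC11 DOX libraries, without overlap (1.00 ± 0.10 (SE), adjusted p = 1.61e-08). Both belong to the large subunit, and of their windows, shown above, that of Rpl14 holds a pyrimidine run across the start and that of Rpl34 a run before it.

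**Figure D3:**
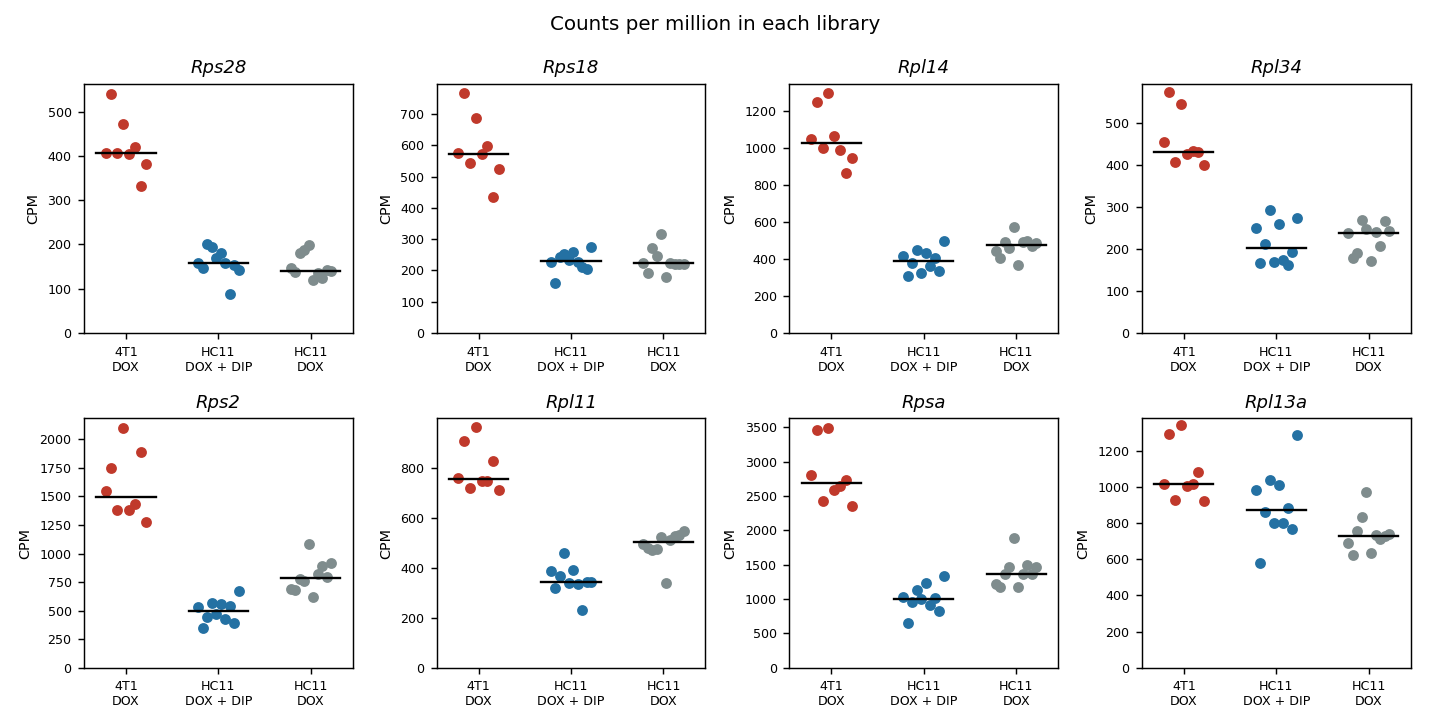
CPM of 8 ribosomal protein genes in each library (4T1 DOX, HC11 DOX + DIP, HC11 DOX), with group medians as lines and vertical axes that start at 0. Rps28, Rps18, Rpl14 and Rpl34 are the 4 genes with the largest 4T1 over HC11 DOX ratio, with no overlap between these groups, and Rps2, Rpl11, Rpsa and Rpl13a were called with DIP, where the DIP and DOX points overlap.

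Among the remaining large-subunit genes, those named for their roles had smaller changes than the median of 0.57. Rpl3, whose product reaches to the peptidyl transferase centre, had 890.2 to 1278 CPM (median 1007) in the 4T1 libraries, against 640.0 to 1023 CPM (median 724) in the HC11 DOX libraries (0.41 ± 0.10 (SE), adjusted p = 8.40e-04). Rpl22, which mice need for alpha-beta T cell development, had 363 to 542 CPM (median 406) in the 4T1 libraries, against 265 to 430.2 CPM (median 294) in the HC11 DOX libraries (0.37 ± 0.12 (SE), adjusted p = 0.0076). Rpl13a, which in human monocytic cells leaves the ribosome to silence inflammatory mRNAs, had 920.1 to 1340.2 CPM (median 1017) in the 4T1 libraries, against 623 to 974 CPM (median 730.3) in the HC11 DOX libraries (0.51 ± 0.09 (SE), adjusted p = 5.64e-05). The groups overlapped for all 3. Under scaling by library totals the call of Rpl22 was lost, at 0.15 (adjusted p = 0.208). The 3 large-subunit genes that did not pass were singled out after their values were seen, as was Rps25. Rpl13 had 1076 to 1553 CPM (median 1133) in the 4T1 libraries, against 906 to 1424 CPM (median 1106) in the HC11 DOX libraries (0.10 ± 0.10 (SE), adjusted p = 0.381). Rpl32 differed by 0.03 ± 0.10 (SE) (adjusted p = 0.829) and Rpl21 by 0.03 ± 0.07 (SE) (adjusted p = 0.773). For these 4 genes the groups overlapped over most of their ranges. The windows of Rpl13 and Rps25 shown above hold a pyrimidine run before the start, like that of Rpl34.

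Each gene was also expressed as a share of the counts on the 52 genes, which does not depend on the scaling between libraries. The share was higher in 4T1 than in HC11 DOX libraries without overlap for 9 genes, lower without overlap for 9, and overlapped for 34. Shares add up to a whole, so that some fall where others rise. The 4 examples that follow were picked after their values were seen. Rps28 made up 0.69% to 0.90% in 4T1 and 0.41% to 0.54% in HC11 DOX libraries. Rpsa made up 5.36% to 5.73% in 4T1 and 4.09% to 4.92% in HC11 DOX libraries. Rpl13 made up 2.29% to 2.53% in 4T1 and 3.34% to 3.82% in HC11 DOX libraries, and Rps25 0.95% to 1.18% in 4T1 and 1.66% to 2.15% in HC11 DOX libraries. None of these 4 pairs of ranges overlapped.

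The same count was made by how far a gene shares its sequence with copies. Of the 7 genes with at least 50% unique coding stretches, 6 were higher in 4T1, with a median log2 fold change of 0.63, and of the 9 genes whose copies held under 0.1 of their own count, 8 were higher, also with a median of 0.63. Of the 23 genes whose copies held more counts than the gene itself, 21 were higher, with a median of 0.71. Adding the counts of the pseudogenes to the parent gave the same 48 genes. Removing the pseudogenes from the table did so too, but this leaves the genes' own counts unchanged and cannot show what shared reads do.

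With DIP, HC11 cells showed few and small differences in ribosomal protein genes, on both sides of 0. Of the 52 genes, 1 was higher with DIP, 7 were lower and 44 did not pass the quasi-likelihood test of edgeR after the same adjustment, while 24.5% of 23829 genes tested were called higher and 21.0% lower. The median log2 fold change of the 52 was -0.02, against 0.06 for all genes tested, and the range ran from -0.68 to 0.31. The median size of a change, whatever its sign, was 0.14 for the 52 and 0.45 for all genes. For 0 of the 52 genes did every DIP library lie to one side of every DOX library, which held on the higher side for 4.76% and on the lower side for 6.66% of all genes. This comparison shares its HC11 DOX libraries with that of 4T1. At an unadjusted p under 0.05, 4 genes were higher and 10 lower. DESeq2 called 1 higher and 6 lower, and limma voom 1 and 7. Without DIP libraries 8 and 10 there were 0 higher by edgeR, also at an unadjusted p under 0.05, and 8 lower, the same 7 and Rpl7a, against 27.0% and 25.4% of 24427 genes.

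Rps2, Rpsa and Rpl11 fell with DIP, and so did 4 more genes of the large subunit. Of the 8 calls, 2 were in the body of the small subunit, 1 in the 5S particle and 5 among the other large-subunit genes. In the head and at the exit tunnel 0 of 9 and 0 of 5 genes were called by edgeR, DESeq2 or limma voom, although at an unadjusted p under 0.05 edgeR had 1 higher and 2 lower in the head and 2 higher and 1 lower at the tunnel. Scaling by library totals called Rps16 lower as well, and 1 fit of all 28 libraries called Rps3 and Rps16, of the head, and Rpl23a, at the tunnel, lower. Rps2 had 350.1 to 670.1 CPM (median 500.4) in the HC11 DOX + DIP libraries, against 624 to 1086 CPM (median 789) in the HC11 DOX libraries. Only the highest DIP library, number 10 at 670.1 CPM, reached into the lower end of the DOX range, and the difference was -0.68 ± 0.12 (SE) on the log2 scale (adjusted p = 5.27e-05). Rpsa had 647 to 1334 CPM (median 1005) in the HC11 DOX + DIP libraries, against 1172 to 1887 CPM (median 1366) in the HC11 DOX libraries, at -0.45 ± 0.11 (SE) (adjusted p = 0.00215). Rpl11 had 233 to 459 CPM (median 344) in the HC11 DOX + DIP libraries, against 341 to 549.9 CPM (median 502) in the HC11 DOX libraries, with -0.46 ± 0.10 (SE) (adjusted p = 6.76e-04). The low end of the DOX range of Rpl11 was 1 library, number 6, and the low end of its DIP range was library 8. Without DIP libraries 8 and 10 the log2 fold changes were -0.78 for Rps2, -0.53 for Rpsa and -0.40 for Rpl11.

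As shares of the counts on the 52 genes, which do not depend on scaling, Rps2 made up 1.45% to 2.13% in DIP and 2.17% to 2.93% in DOX libraries, and Rpsa 2.90% to 3.97% in DIP and 4.09% to 4.92% in DOX libraries. These ranges did not overlap. Rpl11 made up 0.91% to 1.44% in DIP and 1.33% to 1.81% in DOX libraries, with some overlap. Over the 52 genes, the share was higher in DIP libraries without overlap for 1 gene, Rpl13a, lower without overlap for 2, Rps2 and Rpsa, and overlapped for 49. At the median library, the copies of Rps2, Rpsa and Rpl11 held 21, 1.31 and 1.06 times the genes' own counts, and those of Rpl13a 0.066 times. Adding the counts of the copies to each gene kept all 7 lower calls and added Rpl7a. Of the 23 genes whose copies held more counts than the gene, 5 were called lower with DIP. Of the 20 genes with copies at 0.1 to 1 of their own count 1 was lower, and of the 9 with less also 1. Among all genes tested, 21.0% were called lower.

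Rpl8 (ENSMUSG00000003970), whose product lies close to the peptidyl transferase centre, had 674 to 1017 CPM (median 823) in the HC11 DOX + DIP libraries, against 883 to 1292 CPM (median 1138) in the HC11 DOX libraries, a log2 difference of -0.36 ± 0.09 (SE) (adjusted p = 0.00261). It is nearly free of copies, which held 0.00157 times its count. Rpl6, a large-subunit protein that was named after its value was seen, differed by -0.32 ± 0.08 (SE) (adjusted p = 0.00331). Rpl3 differed by -0.28 ± 0.09 (SE) (adjusted p = 0.0197) and Rpl14 by -0.24 ± 0.09 (SE) (adjusted p = 0.0384). The DIP and DOX ranges overlapped for each of the 4. The call of Rpl14 was lost in 12 of the 20 fits that each left out 1 library, namely HC11 DOX library 1, 3, 5, 7, 8, 9 or 10 or DIP library 2, 3, 5, 7 or 9, and under RLE and upper quartile factors, no filter and DESeq2, with adjusted p of 0.0504 to 0.103.

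Rpl13a was the only gene called higher with DIP. It had 577 to 1289 CPM (median 869.8) in the HC11 DOX + DIP libraries, against 623 to 974 CPM (median 730.3) in the HC11 DOX libraries. The highest value, 1289 CPM, was that of DIP library 10, and the ranges overlapped (0.30 ± 0.11 (SE), adjusted p = 0.0389). Without DIP libraries 8 and 10 the log2 fold change was 0.21 (adjusted p = 0.0993), and the call was lost in 12 of 20 fits that left out 1 library: HC11 DOX library 1, 2, 3, 6, 7, 8, 9 or 10 or DIP library 1, 4, 6 or 10. Without DIP library 2, by contrast, 4 genes were called higher, Rpl13a, Rpl19, Rpl26 and Rps27a.

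The other genes of set roles did not pass with DIP. The 4 stalk genes had log2 fold changes of 0.01 for Rplp0, -0.21 for Rplp1, -0.02 for Rplp2 and -0.18 for Rpl12, and none of the 4 was past an unadjusted p of 0.05 in edgeR, DESeq2 or limma voom. Rpl5, the partner of Rpl11 in the 5S particle, had 692 to 1010.5 CPM (median 873) in the HC11 DOX + DIP libraries, against 689.8 to 1009.8 CPM (median 758) in the HC11 DOX libraries (0.11 ± 0.09 (SE), adjusted p = 0.31). Rps6 had 511 to 871 CPM (median 682) in the HC11 DOX + DIP libraries, against 588 to 838 CPM (median 679) in the HC11 DOX libraries, with 0.00 ± 0.10 (SE) (adjusted p = 0.981). Rps19 (-0.14), Rps27a (0.27), Rpl22 (0.18) and Rps14 (0.31) overlapped between the groups as well. Of the 4 genes with the largest 4T1 ratio, Rpl14 was called lower with DIP, as given above, and the other 3 did not pass, at 0.09 for Rps28, 0.00 for Rps18 and -0.05 for Rpl34. A difference that missed the threshold does not show that levels were equal: with standard errors of 0.08 to 0.17, small differences could not be detected.

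Other measures moved with DIP beside these genes. The 3 cell cycle genes summed to 12.3 to 114 CPM in DIP and 403 to 1131 CPM in DOX libraries, and Malat1 and Neat1 held 0.0535% to 0.325% of counts in DIP and 0.0315% to 0.113% in DOX libraries. Mitochondrially encoded genes held 2.81% to 5.33% of counts in DIP and 2.96% to 5.07% in DOX libraries. Their part in the results was not tested.

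Most of the spread within a group was shared by the genes. The SD of log2 CPM over libraries was, for the median gene, 0.21 in 4T1, 0.29 in DIP and 0.20 in DOX libraries, and after the mean of the 52 genes was taken off each library it was 0.067 in 4T1, 0.17 in DIP and 0.099 in DOX libraries. In 4T1 the highest value was in library 2 for 27 genes and in library 4 for the other 25. In DOX libraries the highest was library 5 for 40 genes and the lowest library 6 for 34.

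The DIP libraries shared least. Library 2 was the lowest for 32 genes and library 8 for 19, and library 10 was the highest for 29. Rps20, of the small-subunit head, departed most from the common level in DIP, with an SD of 0.54 after the mean was taken off, since it stood at 213 and 324 CPM in libraries 8 and 10 and at 451 to 735 CPM in the other 8. Rps14 went the other way, at 690.2 and 1052 CPM in libraries 8 and 10 and 359 to 592 CPM in the other 8. In library 8, Rps3 stood at 309.8 CPM, its lowest in any library. The same libraries stood apart for glucocorticoid targets and Krt5 above, and what these measures have to do with each other was not tested.

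**Figure D4:**
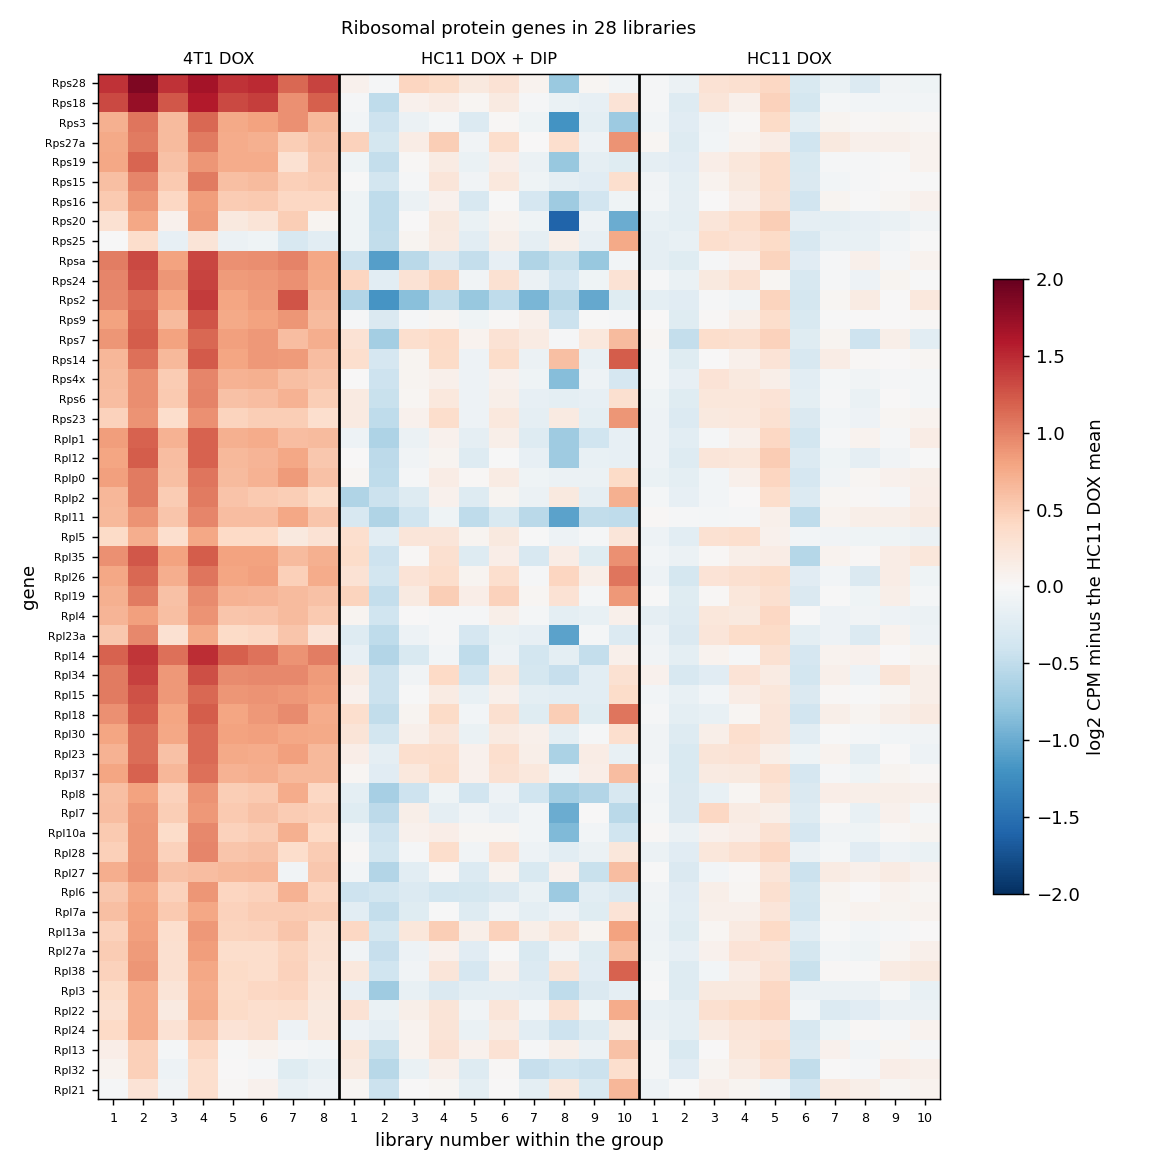
Log2 CPM of each of the 52 genes (rows) in each library (columns, numbered within 4T1 DOX, HC11 DOX + DIP and HC11 DOX), minus the gene's mean over HC11 DOX libraries, on a colour scale from -2 to 2. Nearly all 4T1 cells are red, with libraries 2 and 4 darkest, the Rps2 and Rpsa rows are mostly blue in the DIP libraries, and DIP libraries 8 and 10 show a pattern of their own.

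Genes linked to the ribosome were set beside these 52. Of 28 other cytosolic ribosomal protein genes, 23 were higher in 4T1 and 0 lower, with a median log2 fold change of 0.68, and with DIP 1 was higher and 3 were lower, with a median of -0.03. Of all genes tested, 34.3% were called higher and 35.6% lower in 4T1, and 24.5% higher and 21.0% lower with DIP. Among the 28, Rpl37rt is annotated as a pseudogene and was also counted as a copy of Rpl37. The 0 lower in 4T1 held at an unadjusted p under 0.05, by DESeq2 and by limma voom, while scaling by library totals gave 21 higher and 1 lower. Without 4T1 libraries 1 and 2 these were 21 and 0, and without DIP libraries 8 and 10 the DIP counts were again 1 and 3. Rpl41, which encodes the shortest ribosomal protein, had 1008 to 1551 CPM (median 1118) in the 4T1 libraries, against 407 to 724 CPM (median 580.0) in the HC11 DOX libraries (1.01 ± 0.11 (SE), adjusted p = 8.11e-08). With DIP Rpl41 had 278 to 499 CPM (median 382) in the HC11 DOX + DIP libraries, against 407 to 724 CPM (median 580.0) in the HC11 DOX libraries and fell (-0.63 ± 0.12 (SE), adjusted p = 1.45e-04). Rpl29 was higher in 4T1 at 1.01, and Rpl37a was lower with DIP at -0.50. Of 9 paralogues, 5 passed the filter and all 5 were higher in 4T1, among them Rpl36al at 1.01 and Rps27rt at 0.76. With DIP 1 of the 5 was lower, Rpl22l1, the paralogue of Rpl22, at -0.46 ± 0.13 (SE) (adjusted p = 0.00624). Of the 5, 2 were lower without DIP libraries 8 and 10, and all 5 were again higher in 4T1 without 4T1 libraries 1 and 2.

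The other TOP mRNAs, which encode translation factors and RNA-binding proteins, were mostly higher in 4T1, with 17 of 21 higher and a median log2 fold change of 0.56. In that comparison 34.3% of all genes tested were called higher and 35.6% lower. None of the 21 was lower by edgeR, at an unadjusted p under 0.05, by DESeq2 or by limma voom, while scaling by library totals gave 15 higher and 2 lower. Eif3l, a subunit of initiation factor eIF3, had 545 to 663 CPM (median 614) in the 4T1 libraries, against 156 to 249 CPM (median 207) in the HC11 DOX libraries (1.57 ± 0.09 (SE), adjusted p = 3.74e-12). Npm1, the nucleolar chaperone nucleophosmin, was higher at 1.11 ± 0.16 (SE). With DIP 2 of the 21 were higher and 7 lower, with a median of -0.17, while 24.5% of all genes tested were called higher and 21.0% lower. These were 2 and 8 without DIP libraries 8 and 10, and without 4T1 libraries 1 and 2 the 4T1 counts were again 17 and 0. Hnrnpa1, a splicing factor, fell with DIP without overlap, with 194 to 328 CPM (median 251) in the HC11 DOX + DIP libraries, against 491 to 799.9 CPM (median 723) in the HC11 DOX libraries (-1.49 ± 0.11 (SE), adjusted p = 2.61e-10). Npm1 fell with DIP at -0.83 ± 0.19 (SE). With upper quartile factors the count for DIP was 2 higher and 4 lower.

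The last list holds mTORC1, its regulators and LARP1. Of its 17 genes, 3 were higher and 7 lower in 4T1 (2 and 10 under library totals), with a median log2 fold change of -0.21, while 34.3% of all genes tested were called higher and 35.6% lower. The share called lower was thus near that of all genes. With DIP 9 were higher and 1 was lower, with a median of 0.42, while 24.5% of all genes were called higher and 21.0% lower. Without DIP libraries 8 and 10 these were 8 and 1, with a median of 0.30, and without 4T1 libraries 1 and 2 the 4T1 counts were again 3 and 7. Both activators and inhibitors of the complex moved. With DIP the higher genes were Mtor and Rptor, which encode its kinase and its scaffold, Rheb, its activator, and Tsc1, Akt1s1, Eif4ebp2, Sesn1, Sesn2 and Deptor, which restrain the complex or act as brakes downstream of it. Deptor had 10.4 to 265 CPM (median 179) in the HC11 DOX + DIP libraries, against 12.5 to 35.9 CPM (median 27.4) in the HC11 DOX libraries and rose by 2.59 ± 0.44 (SE) (adjusted p = 6.26e-05). Sesn1 rose by 1.34 ± 0.39 (SE). In 4T1 Sesn2 and Sesn1, the sestrins that restrain the complex when amino acids are scarce, were lower without overlap, at -1.29 ± 0.18 (SE) and -1.23 ± 0.15 (SE). These are transcript levels, and the activity of the complex was not measured.

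**Figure D5:**
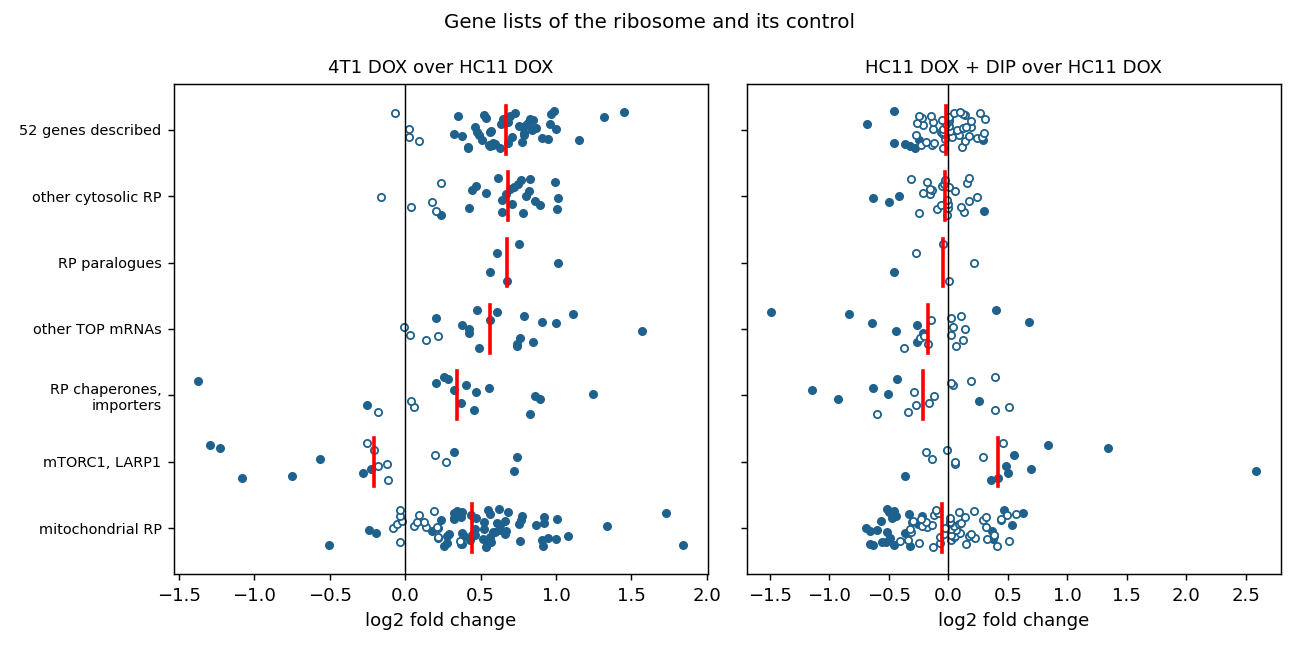
Log2 fold change of each gene (points, filled where edgeR's adjusted p was under 0.05) in the 52 genes and 6 other lists, 4T1 over HC11 DOX on the left and HC11 DOX + DIP over HC11 DOX on the right, with the median of each list as a red bar. On the left the medians of the 5 lists of ribosomal proteins and TOP mRNAs lie between 0.44 and 0.68 and that of mTORC1 genes at -0.21, and on the right that of mTORC1 genes lies at 0.42 and the others between -0.21 and -0.02.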

How the data were processed

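The values are whole read counts per gene, deposited by the authors as 1 table per library, with no normalisation as far as the files show. Per the submitters' processing notes, fastp 0.23.2, featureCounts 2.0.1 and the build GRCm39 were used. The aligner, the treatment of reads with several positions and the strand setting were not given in the sources used here. Reads of a gene and of an antisense or identical copy can therefore not be told apart. Groups were taken from the labels of line and treatment. Symbols, coding lengths and pseudogenes came from GENCODE vM21, by Ensembl identifier (52073 of 56748 named). Library numbers follow series order and only name a library.

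Each comparison was fitted over its own libraries with edgeR 4.0.16 in R 4.3.3 (filterByExpr, TMM factors, glmQLFit with robust estimation, glmQLFTest), with Benjamini-Hochberg adjustment over all genes tested, called at 0.05. CPM (counts divided by the scaled library total) was computed with TMM factors of the 28 libraries together. limma 3.58.1 (voom) and DESeq2 1.42.0 served as alternatives, beside other scalings, no filter, 1 fit of all libraries, pseudogenes removed or summed, and libraries left out. The procedure was tested on simulated data. Named genes were the 4 largest called changes per direction and comparison, 14 genes of set roles and the 2 largest called changes of each other list. The 52 genes, the lists and the tests were chosen with earlier results of these data known. Depth was at least 134117581 counts, so counting error is small beside the spread between libraries.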

Additional observations from a re-analysis of the deposited data

Results flagged for a closer look

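Over 63 groups of values of the named genes, 6 held a library far from the rest of its group by Dixon's criterion, where chance gives about 1 in 20. The groups are not independent, since the genes share libraries and vary together, so the 6 cannot be set against that rate. In HC11 DOX + DIP, library 10 was the highest for Rplp2 (709.2 CPM, next 498.3), for Rps14 (1052 CPM, next 690.2, library 8) and for Rpl22 (534.7 CPM, next 395.5), and library 8 was the lowest for Rps28 (88.6 CPM, next 143.2). In HC11 DOX, library 6 was the lowest for Rpl11 (341.3 CPM, next 471.7) and library 5 the highest for Rpsa (1887 CPM, next 1492). DIP libraries 8 and 10 are those that stood apart on glucocorticoid targets and Krt5.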

How the results depend on the processing

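No paired analysis was possible because the labels give no replicate numbers. For 4T1, the 48 higher calls were 44 to 48 under the alternatives and 48 without any single library, with lower calls at 0 except 2 under library totals, where the median was 0.44. Without any single library the median lay between 0.63 and 0.70. Fitting all 28 libraries together ended the call of Rps20. For DIP, the 1 higher call became 0 with no filter, with pseudogenes removed or summed and without DIP libraries 8 and 10, and 0 to 4 without a single library. Without a single library, the lower calls numbered 6 to 9 and the median lay between -0.07 and 0.01. The 7 lower calls were 6 to 8 under the other alternatives, except 10 in the fit of all 28 libraries, which added Rpl23a, Rps16 and Rps3. None of the 20 ribosomal protein genes named by rule changed sign while called. Of their values, 32 fell short of the threshold that they had passed and 1 passed anew for DIP. All those lost for DIP were of Rpl13a and Rpl14, and 2 fell short for 4T1, those of Rpl22 and Rpl5. Rpl21 and Rps25, singled out after their values were seen, are not among the 20. Both were called lower in 4T1 under library totals, against uncalled log2 fold changes of 0.03 and -0.07 in the main fit. Rpl21 thus changed sign. With pseudogenes and mitochondrially encoded genes taken out of the total, the median shares were 4.88% in 4T1 and 3.64% in HC11 DOX libraries, and 3.51% in DIP libraries. Depth did not limit these abundant genes. The standard errors reflect the spread between libraries. Reads shared with copies limit what a count means, and their part in the calls was not tested, since the assignment of such reads is not known.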

Other observations

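Mitochondrial ribosomal protein genes, which build the separate ribosomes of mitochondria, were mostly higher in 4T1, with 59 of 78 higher and 3 lower and a median log2 fold change of 0.44 (37 and 8 under scaling by library totals, and 56 and 2 without 4T1 libraries 1 and 2), while 34.3% of all genes tested were called higher and 35.6% lower. Mrpl13 had 194 to 234 CPM (median 209) in the 4T1 libraries, against 40.8 to 68.4 CPM (median 57.2) in the HC11 DOX libraries, without overlap (1.84 ± 0.08 (SE), adjusted p = 6.75e-14 by edgeR). Mrps33 was higher at 1.73 ± 0.09 (SE). With DIP 6 were higher and 21 lower, with a median of -0.05, while 24.5% of all genes tested were called higher and 21.0% lower. Without DIP libraries 8 and 10 these were 3 and 35, with a median of -0.25, against 27.0% and 25.4% of all genes. Mrpl49 was lower with DIP at -0.69 ± 0.13 (SE) and Mrpl42 at -0.66 ± 0.15 (SE).

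Genes listed as importers and chaperones of ribosomal proteins, with some other factors such as Nacad and Btf3, were also mostly higher in 4T1. Btf3 was also counted among the other TOP mRNAs. Of the 18 genes, 13 were higher and 2 lower (6 and 4 under library totals, and 12 and 2 without 4T1 libraries 1 and 2). Beside these, 34.3% of all genes tested were called higher in 4T1 and 35.6% lower. Ipo5, an importin for ribosomal proteins, had 526.2 to 721 CPM (median 645) in the 4T1 libraries, against 228 to 319 CPM (median 255) in the HC11 DOX libraries (1.24 ± 0.08 (SE), adjusted p = 1.52e-11 by edgeR), while Nacad was lower at -1.37 ± 0.22 (SE). With DIP 1 was higher and 5 lower, or 1 and 8 without DIP libraries 8 and 10, beside the same shares of all genes as above. Ipo9 had 47.5 to 67.4 CPM (median 57.3) in the HC11 DOX + DIP libraries, against 92.2 to 153 CPM (median 136) in the HC11 DOX libraries, without overlap (-1.14 ± 0.10 (SE)). The histone and ribosome-assembly chaperone Nap1l1 was lower with DIP at -0.93 ± 0.09 (SE), also without overlap.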
